A study of Mus musculus with 9 samples.

Results

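Expression of 9 transcriptional outputs and feedback regulators of the mitogen-activated protein kinase (MAPK) pathway, namely Dusp4, Dusp5, Dusp6, Spry2, Spry4, Spred1, Etv4, Etv5 and Phlda1, was followed in tumours depleted of Gad1. The genes were taken by symbol, and all 9 were found among the 17134 genes listed in each of the 9 libraries. MC38, a mouse colon adenocarcinoma line, had been transduced with lentivirus carrying an shRNA to GAD1 (GAD1-shA or GAD1-shB, here shA and shB) or a non-targeting shRNA (NTC), selected with puromycin and injected under the skin of C57BL/6 mice. Tumours were taken on day 20, and whole-tumour RNA was sequenced from 3 shA, 3 shB and 3 NTC tumours. All groups carried a lentiviral vector and a selection marker. The shRNAs were introduced into the injected cells, and the tumours also hold host cells that do not carry them. The labels do not say whether a line was 1 clone, how many mice gave the tumours of a group, or how old the mice were. The p-values therefore cover the variation among libraries, which may be partly technical.

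In the RAS-ERK branch of the MAPK pathway, growth factors bind receptor tyrosine kinases, RAS is loaded with GTP, and the kinases RAF, MEK and ERK are activated in turn. Active ERK drives transcription of a set of genes, many of which dampen the same pathway. The dual-specificity phosphatases (DUSPs) remove the activating phosphates from MAP kinases, and the Sprouty and SPRED proteins restrain signalling between receptors and RAF. ETV4 and ETV5 are ETS-family transcription factors, and PHLDA1 is a pleckstrin-homology-like protein induced by growth factors. The levels of several of these transcripts are widely used as a readout of ERK output, and the pathway is often mutated in colorectal carcinoma.

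The libraries held 18373748 to 24918174 reads assigned to genes, and values are normalized reads, meaning reads divided by 1 factor per library. Gad1 read 13.1, 23.4 and 50.002 in shA tumours, 21.8, 42.2 and 23.6 in shB tumours, and 281, 265 and 326 in NTC tumours. Every knockdown library lay under every NTC library, as labelled. The log2 difference of both shRNAs to NTC was -3.43 (SE 0.41), with an adjusted p of 0.000643 in limma and an exact two-sided permutation p of 0.0119 over 84 assignments. Epithelial genes were present in all libraries, with Epcam, Cdh1 and Krt8 among them. The summed level of 10 epithelial genes spanned 39194 to 64082 in shA, 38927 to 61151 in shB and 33010 to 40282 in NTC tumours. Whether this RNA came from the injected cells was not tested. Some libraries stood apart: shA replicate 1 had the highest sums of T cell, dendritic cell, neutrophil, endothelial and epithelial markers, shB replicate 1 the highest sums of fibroblast and skeletal muscle markers, and NTC replicate 1 the lowest sums of T cell and macrophage markers.

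Of the 9 genes, 5 fell and none rose in the 6 knockdown tumours against the 3 NTC tumours, with the shRNAs given equal weight. Dusp4, Dusp6, Spry2, Spry4 and Etv4 fell by 2.35- to 2.71-fold, a narrow range, and the same 5 passed with shA alone and with shB alone. Etv5, Spred1, Phlda1 and Dusp5 did not pass the test in any of these comparisons. Over all 14600 genes tested with limma at an adjusted p below 0.05, 9.49% were called lower and 15.5% higher for both shRNAs, 5.59% lower and 11.4% higher with shA, and 7.02% lower and 13.4% higher with shB. The share called lower with shA and also with shB was 3.71%. The median log2 difference was -1.23 over the 9 genes, against -0.03 over all genes tested. All 5 falling genes had 6 of 6 knockdown libraries below the lowest NTC library, a pattern that 13.6% of all genes tested showed. The 9 genes were chosen with earlier results of these data known. Their contrasts with all genes are therefore descriptive and do not test the set.

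Markers of host cells moved with the same groups. All 8 T cell markers rose, with summed levels of 2451 to 7300 in shA, 2070 to 2460 in shB and 422 to 650 normalized reads in NTC tumours. The 8 macrophage markers all rose as well, with sums of 32822 to 35680 in shA, 21174 to 27635 in shB and 2556 to 5575 in NTC tumours. All 6 dendritic cell markers rose, with sums of 2084 to 3760 in shA, 1730 to 2658 in shB and 208 to 477 in NTC tumours. Of 7 fibroblast markers 5 rose and 1 fell, and none of 7 endothelial markers passed. Of 10 epithelial markers Cdh1 and Krt7 rose and Cdx2 fell. Over all genes tested, 15.5% were called higher and 9.49% lower, and the epithelial counts were close to these shares. Skeletal muscle sums spanned 161 to 1699 in shA, 150 to 6713 in shB and 128 to 315 in NTC tumours, with Acta1 and Myh4 at 0 in some libraries. Of 4 neutrophil markers tested 2 rose, as did 1 of 2 keratinocyte markers and 1 of 7 skeletal muscle markers. The part of these cells in the values of the 9 genes and of the other pathway genes was not tested.

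**Figure D1:**
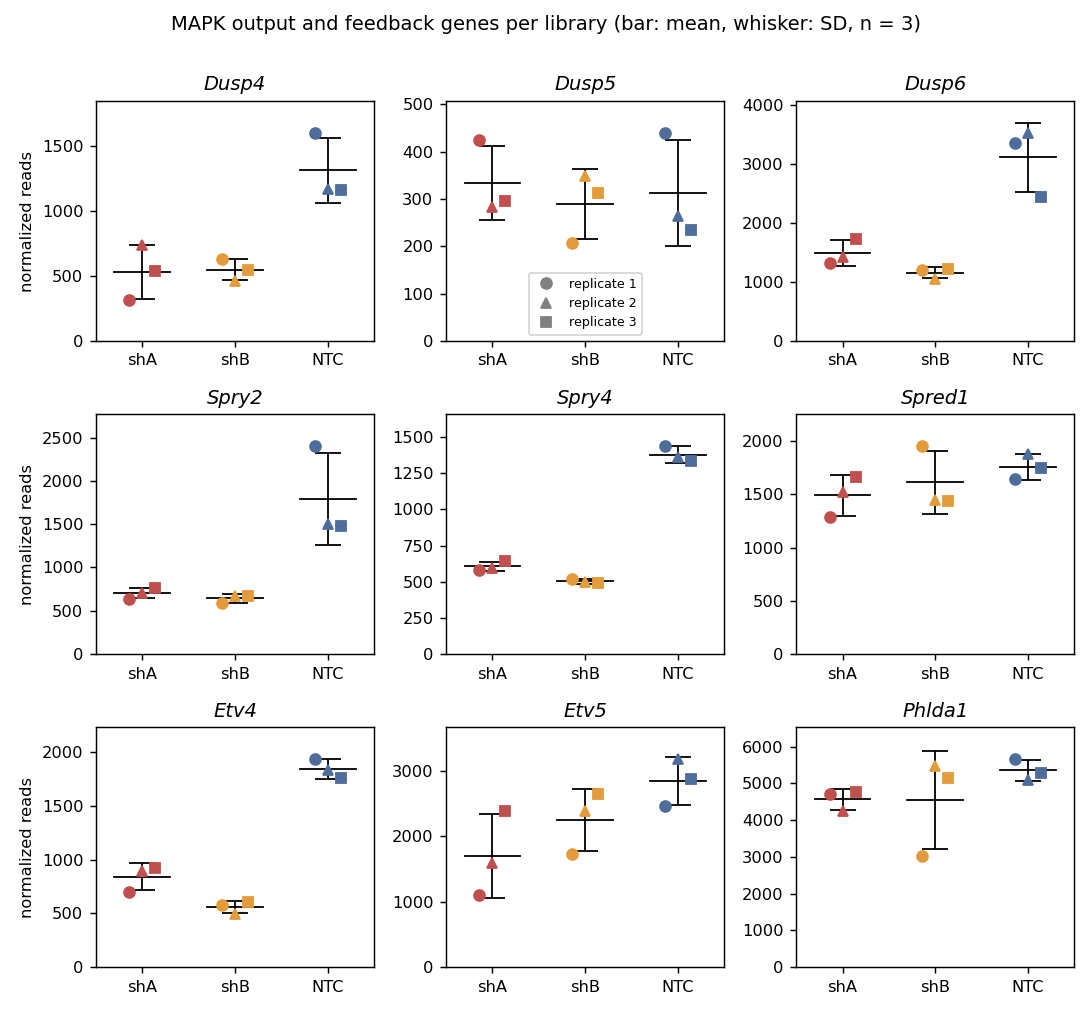
Normalized reads of the 9 genes (vertical axes, starting at 0) in each shA, shB and NTC library, with the mean as a bar and the SD as whiskers (n = 3). The knockdown libraries of Dusp4, Dusp6, Spry2, Spry4 and Etv4 lie below all NTC libraries, whereas the groups overlap for Dusp5, Spred1, Etv5 and Phlda1.

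The promoter windows of Dusp6 and Spry2, which fell, and of Dusp5, which did not pass the test, are shown as examples of the DNA ahead of these genes. Windows from RefSeq entries on GRCm38.p6 were examined for 5 of the 9 genes, Spred1, Dusp6, Spry2, Etv5 and Dusp5. Those of Dusp4, Spry4, Etv4 and Phlda1 were not examined, which does not mean that these genes lack such entries. Each window holds the 250 bases before the annotated start, 5′ to 3′ on the strand of the gene, and capitals mark CArG boxes, the element bound by serum response factor. The windows are chr10:99262981-99263230 on the plus strand for Dusp6, chr14:105896820-105897069 on the minus strand for Spry2 and chr19:53528895-53529144 on the plus strand for Dusp5.
Dusp6: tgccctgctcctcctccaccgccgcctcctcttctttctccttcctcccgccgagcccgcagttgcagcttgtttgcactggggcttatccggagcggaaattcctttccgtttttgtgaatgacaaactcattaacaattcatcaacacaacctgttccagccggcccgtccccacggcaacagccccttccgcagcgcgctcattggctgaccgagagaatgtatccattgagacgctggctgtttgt
Spry2: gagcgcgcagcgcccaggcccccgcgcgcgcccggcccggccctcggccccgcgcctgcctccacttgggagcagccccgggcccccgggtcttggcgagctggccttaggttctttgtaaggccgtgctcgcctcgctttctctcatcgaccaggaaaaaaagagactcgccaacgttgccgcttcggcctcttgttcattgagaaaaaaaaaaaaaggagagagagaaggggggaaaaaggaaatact
Dusp5: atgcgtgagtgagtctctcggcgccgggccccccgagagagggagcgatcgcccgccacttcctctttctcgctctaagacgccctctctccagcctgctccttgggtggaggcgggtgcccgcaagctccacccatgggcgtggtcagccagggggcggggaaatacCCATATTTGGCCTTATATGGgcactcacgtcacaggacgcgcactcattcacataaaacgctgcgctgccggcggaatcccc
Of 5 motifs searched on both strands, the Dusp5 window held 2 adjoining CArG boxes, beginning 82 and 72 bases before the start, and 1 GC box (GGGCGG). A CArG box was found in 1.47% and a GC box in 32.7% of the 32851 promoter windows of this length. The windows of Dusp6 and Spry2 held none of these, and no AP-1 site TGAGTCA (4.46% of windows) or cAMP response element TGACGTCA (1.55%). They also lacked CCGGAA (12%), 1 extended form of an ETS site. Shorter or other forms of the ETS site were not searched, and GGAA occurs in both windows. The windows of Spred1 and Etv5, which also did not pass, held no CArG box, and had 2 GC boxes in Spred1 and 3 in 1 of the 2 Etv5 entries. No match overlapped another. A match describes the letters of the window and is not a measured binding site.

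Among the phosphatases, Dusp6 encodes a cytoplasmic enzyme that acts on ERK with high selectivity and is itself induced by ERK. Dusp6 read 1311, 1424 and 1732 in shA tumours, 1198, 1044 and 1216 in shB tumours, and 3358, 3528 and 2431 in NTC tumours. Each knockdown library was below each NTC library, and the shB libraries were all below the shA libraries. The means were 1489 ± 218 with shA, 1153 ± 94.4 with shB and 3106 ± 591 in NTC (SD, n = 3 each). The log2 difference of both shRNAs to NTC was -1.23 (SE 0.15, 2.35-fold lower, adjusted p 0.000611 in limma). In whole tumours, fewer cells that express a gene and less RNA per cell cannot be told apart.

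Dusp4, a nuclear phosphatase of ERK and other MAP kinases, read 318, 737 and 537 in shA tumours, 629, 465 and 549 in shB tumours, and 1605, 1172 and 1164 in NTC tumours. No knockdown library overlapped the NTC libraries, but the shA libraries were spread widely, with a coefficient of variation of 39.5%, against 15.0% in shB and 19.2% in NTC. The lowest value was that of shA replicate 1, the library with the highest T cell, dendritic cell, neutrophil and endothelial marker sums and also the highest epithelial sum, 64082. The part of these cells in the Dusp4 value was not tested. The decrease was 2.49-fold for both shRNAs (log2 -1.31, SE 0.24, adjusted p 0.00415 in limma). With shB alone the adjusted p in limma was 0.0120 with all libraries, 0.0502 without shB replicate 2 and 0.0528 without NTC replicate 1.

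Dusp5, a nuclear phosphatase that binds and holds ERK, was not called in any comparison. It read 425, 283 and 295 in shA tumours, 207, 348 and 313 in shB tumours, and 440, 263 and 235 in NTC tumours. All 3 groups overlapped. The log2 difference was 0.02, with a 95% interval from -0.55 to 0.59 (limma, adjusted p 0.966). A decrease of the size seen for Dusp6 lay outside this interval. The sign of this small difference turned under 7 of 24 alternatives, which gave values between -0.16 and 0.31. The ratio of Dusp6 to Dusp5 reads, chosen after the values were seen, averaged 4.66 ± 1.43 in shA, 4.22 ± 1.42 in shB and 10.5 ± 2.90 in NTC tumours (SD, n = 3 each), with the highest knockdown library at 5.87 and the lowest NTC library at 7.62.

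Both Sprouty genes among the 9 fell. Spry4, an inhibitor of receptor-driven RAS activation, read 581, 596 and 643 in shA tumours, 518, 496 and 490 in shB tumours, and 1442, 1365 and 1332 in NTC tumours. Its libraries varied little within a group, with coefficients of variation of 5.39% in shA, 2.96% in shB and 4.09% in NTC. Each knockdown library was below each NTC library, and each shB library was below each shA library. The decrease was 2.5-fold (log2 -1.32, SE 0.10, adjusted p 0.000185 in limma), and this adjusted p was the smallest of the 9 genes.

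Spry2, which inhibits the same step and also affects receptor turnover, read 639, 702 and 757 in shA tumours, 583, 666 and 674 in shB tumours, and 2409, 1500 and 1477 in NTC tumours. The knockdown libraries were close together, and NTC replicate 1 stood above the other NTC libraries. The decrease was 2.61-fold (log2 -1.39, SE 0.17, adjusted p 0.000631 in limma), and the log2 difference was -1.15 without NTC replicate 1. NTC replicate 1 was also the highest NTC library for Dusp4, Dusp5, Spry4, Etv4 and Phlda1, and had the lowest summed macrophage markers, 2556 against 5575 and 5411 in the other NTC libraries. The part of that difference in the values of these genes was not tested.

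Spred1, a Sprouty-related inhibitor that works with neurofibromin against RAS, did not pass. It read 1286, 1524 and 1666 in shA tumours, 1958, 1446 and 1437 in shB tumours, and 1641, 1880 and 1747 in NTC tumours. Of the knockdown libraries 4 were below the NTC range and 1, shB replicate 1, was above it. The log2 difference was -0.19, with a 95% interval from -0.49 to 0.11 (limma, adjusted p 0.335). The ratio of Spry2 to Spred1 reads, also chosen after the values were seen, averaged 0.471 ± 0.0229 in shA, 0.409 ± 0.0966 in shB and 1.04 ± 0.374 in NTC tumours (SD, n = 3 each).

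Of the ETS factors, Etv4 passed the test and Etv5 did not, and the difference between their responses was not tested. Etv4, which encodes a PEA3-family activator downstream of FGF and ERK signalling, read 695, 898 and 925 in shA tumours, 577, 495 and 604 in shB tumours, and 1942, 1835 and 1761 in NTC tumours. Every shB library was below every shA library, and every shA library was below every NTC library. The decrease for both shRNAs was 2.71-fold (log2 -1.44, SE 0.13, adjusted p 0.000250 in limma). It was 2.21-fold with shA and 3.31-fold with shB.

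Etv5, its close relative, read 1109, 1592 and 2383 in shA tumours, 1727, 2385 and 2652 in shB tumours, and 2467, 3192 and 2882 in NTC tumours. Of the 6 knockdown libraries 5 were below the lowest NTC library, and shB replicate 3 lay within the NTC range. The log2 difference was -0.58, with a 95% interval from -1.09 to -0.07 (limma, adjusted p 0.0909). Without shA replicate 3 it was -0.72 (limma, adjusted p 0.0240). With shA alone the log2 difference was -0.81 (limma, adjusted p 0.0612), and the adjusted p was 0.0385 without shB replicate 1. The ratio of Etv4 to Etv5 reads, chosen after the values were seen, averaged 0.526 ± 0.124 in shA, 0.256 ± 0.0681 in shB and 0.658 ± 0.114 in NTC tumours (SD, n = 3 each). The shA ratios overlapped the NTC ratios, and the shB ratios were below both.

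Phlda1, the growth-factor-induced pleckstrin-homology-like gene, read 4698, 4238 and 4767 in shA tumours, 3032, 5474 and 5142 in shB tumours, and 5675, 5102 and 5290 in NTC tumours. The shA libraries were all below the NTC range, whereas of the shB libraries replicate 1 was below that range and the others within it. The log2 difference was -0.26, with a 95% interval from -0.64 to 0.13 (limma, adjusted p 0.311).

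**Figure D2:**
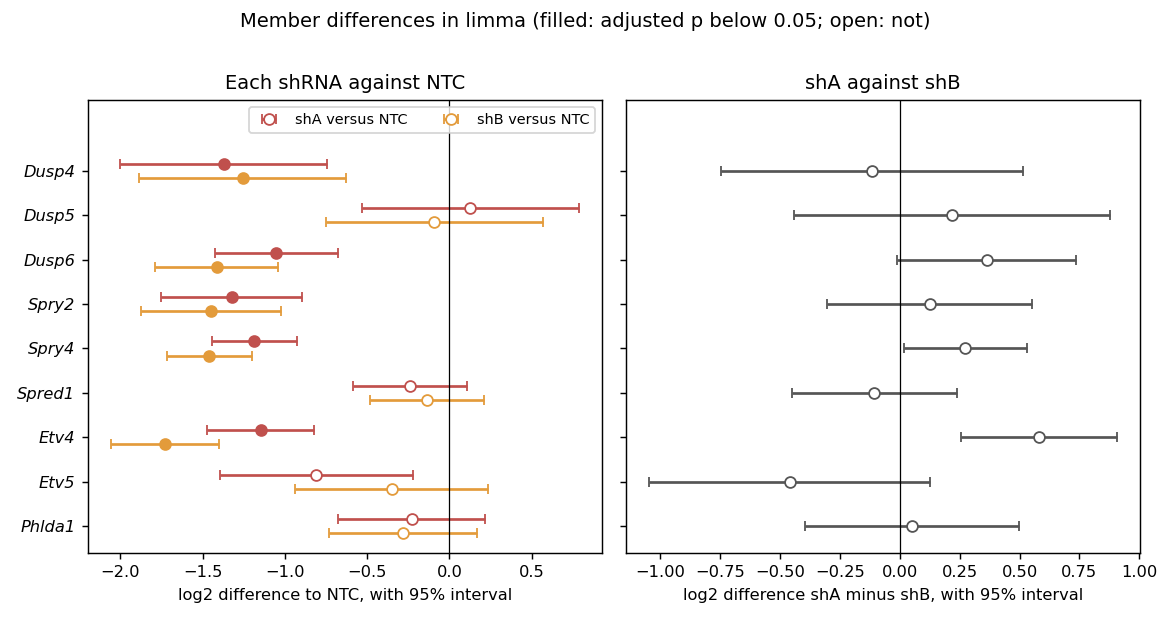
Log2 differences of the 9 genes with 95% intervals from limma, for shA and shB each against NTC (left) and for shA minus shB (right), with filled points where the adjusted p was below 0.05. On the left Dusp4, Dusp6, Spry2, Spry4 and Etv4 lie between -1.05 and -1.73, and on the right no point is filled.

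Both shRNAs were compared with the same NTC libraries, so the shRNAs were also set against each other. None of the 9 genes passed between shA and shB in limma, and 0% of all genes tested did; 1010 genes, or 6.918%, had an unadjusted p under 0.05. The same comparison called 0 genes in edgeR and 23 in DESeq2. Etv4 was higher in shA than in shB tumours by 0.58 on the log2 scale (95% interval 0.25 to 0.91, adjusted p 0.680 in limma). Spry4 differed by 0.27 (interval 0.02 to 0.53) and Dusp6 by 0.36 (interval -0.01 to 0.74), each with the same adjusted p of 0.680 in limma. For these 3 genes all shA libraries were above all shB libraries, an arrangement found in 6.33% of all genes tested. Spry2, with a difference of 0.13 (interval -0.30 to 0.55), and Dusp4, with -0.12 (interval -0.75 to 0.51), had overlapping groups.

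Per kilobase of exon, which allows levels of different genes to be compared, Phlda1 was the most abundant of the 9 in every group, with mean levels of 2072 in shA, 2063 in shB and 2429 normalized reads per kilobase in NTC tumours. In NTC tumours Dusp6 (992) and Spry2 (860) came next, with overlapping ranges, followed by Etv5 (694), Etv4 (595) and Dusp4 (480), each overlapping its neighbour. Spry4 (290), Spred1 (259) and Dusp5 (127 normalized reads per kilobase) closed the NTC order, with no overlap between neighbours. In shA tumours Dusp6 (476) came after Phlda1, overlapping Etv5 (413), and Spry4 (128) was last, overlapping Dusp5 (135). In shB tumours Etv5 (550) stood above Dusp6 (368) without overlap, Etv4 (180) was seventh, and Spry4 (105) was last, overlapping Dusp5 (117). The exon lengths are those of GENCODE M21 on GRCm38, not the mm9 named in the submitters' processing notes. On the opposite strand Phlda1, Spry4 and Dusp5 overlap other annotated genes, and no label says whether counting used strand.

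Likeness of profiles was measured over the 9 libraries as the root-mean-square distance between log2 values centred on the mean of each gene. The 5 genes that fell lay 0.16 to 0.37 apart. Dusp6 and Spry4 were closest, at 0.16, followed by Spry4 and Etv4 at 0.17. Dusp4 and Dusp5 were farthest apart at 0.83, and the related factors Etv4 and Etv5 were 0.64 apart. Among 12195 other genes, the profile nearest to Spry4 was that of Mpp2 (0.15), to Dusp6 that of Lemd1 (0.14), to Spry2 that of Fndc4 (0.15), to Etv4 that of Nt5dc2 (0.15) and to Dusp4 that of Fam13c (0.19). Tgfb2, the second nearest to Spry4 (0.15), averaged 1825 in shA, 1683 in shB and 3895 normalized reads in NTC tumours. Of the genes that did not pass, Spred1 was nearest to Cnnm3 (0.06), Phlda1 to Arl16 (0.06), Dusp5 to Tmub1 (0.11) and Etv5 to Xxylt1 (0.13). Distances were not scaled by how much a gene varies, so a smaller one need not mean a closer match. The root-mean-square deviation of a gene from its own mean was 0.19 to 0.46 for these genes. It was 0.63 to 0.73 for the 5 that fell. The distances include the difference between knockdown and NTC libraries.

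**Figure D3:**
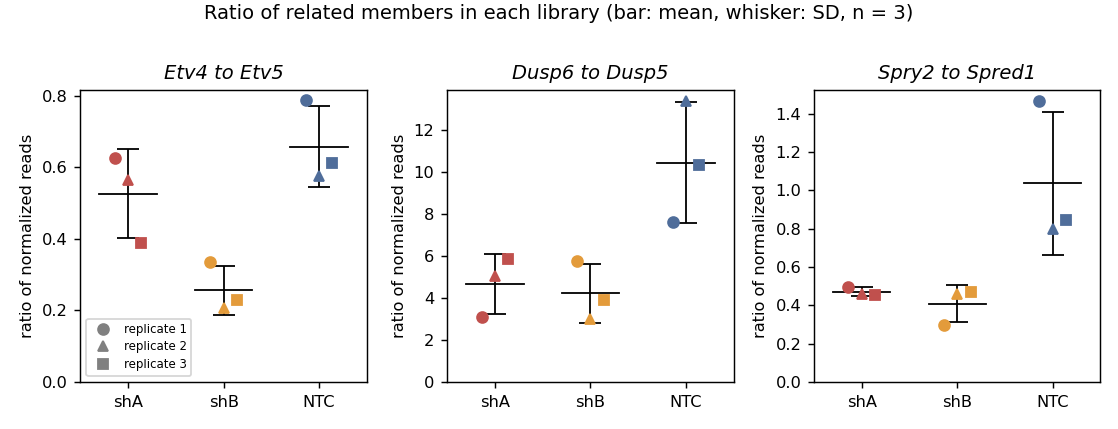
Ratios of normalized reads for 3 pairs of the 9 genes in each shA, shB and NTC library, with the mean as a bar and the SD as whiskers (n = 3). The Dusp6 to Dusp5 ratio is at most 5.87 in the knockdown libraries and at least 7.62 in NTC, and the Etv4 to Etv5 ratio is lowest in shB.

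In 6 lists of other pathway genes, changes went in both directions or upward. For comparison, 15.5% of all genes tested were called higher and 9.49% lower. Of their genes, Spry3, Fosl1, Fgfr4 and 6 ligands were not analysed here, and Fgfr3, Epgn and Fgf7 were below the filter on low values. Among 7 other MAP kinase phosphatases 3 rose, 1 fell and 3 did not pass, with a median log2 difference of 0.06. Dusp2, an inducible nuclear phosphatase abundant in leukocytes, averaged 182 ± 108 in shA, 101 ± 12.0 in shB and 26.9 ± 16.7 in NTC tumours (SD, n = 3 each), a 5.35-fold increase (adjusted p 0.00395 in limma). Dusp10, which acts mainly on p38 and JNK, rose 1.76-fold and the ERK phosphatase Dusp7 1.36-fold, whereas Dusp9 fell 2.06-fold. Without NTC replicate 1, or without NTC replicate 2, 2 of the 7 were called.

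Among 8 other feedback inhibitors of receptor signalling 1 rose, 4 fell and 3 did not pass, with a median log2 difference of -0.46. The shares over all genes tested were 15.5% called higher and 9.49% called lower. Il17rd, known as Sef, an inhibitor of FGF signalling, averaged 331 ± 44.0 in shA, 414 ± 23.6 in shB and 791 ± 74.2 in NTC tumours (SD, n = 3 each), a 2.14-fold decrease (adjusted p 0.000648 in limma). Spred3 fell 2.57-fold and Spred2 fell 1.41-fold. The remaining gene that fell was Errfi1, an inhibitor of EGFR that fell 1.34-fold and was named after its values were seen. Spred2 and Errfi1 were each called in 3 of 9 fits that left out 1 library. Lrig1, which promotes degradation of EGFR-family receptors, rose 5.70-fold, to 4330 ± 1920 in shA and 9344 ± 1758 in shB, against 1130 ± 399 in NTC tumours (SD, n = 3 each). The list had 3 called genes without shA replicate 2, without shB replicate 2, without shB replicate 3 or without NTC replicate 2.

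Of 15 other ERK-responsive genes 3 rose, 2 fell and 10 did not pass, with a median log2 difference of 0.21. These counts were close to the background over all genes tested, 15.5% called higher and 9.49% called lower. Etv1, the third PEA3-family factor, averaged 115 ± 12.9 in shA, 80.5 ± 8.47 in shB and 284 ± 80.9 in NTC tumours (SD, n = 3 each), a 2.87-fold decrease (adjusted p 0.00126 in limma). The chromatin protein gene Hmga2, named after its values were seen, fell 2.53-fold. Lif, a cytokine, rose 6.68-fold, the potassium channel gene Kcnn4 6.34-fold and the transcription factor Myc 3.43-fold. Ccnd1, encoding cyclin D1, had a log2 difference of -0.61 (limma, adjusted p 0.0551). Without shB replicate 1, 8 of the 15 were called.

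In the core RAS-ERK cascade 2 of 26 genes rose, 2 fell and 22 did not pass, with a median log2 difference of -0.09. These counts stand against 15.5% called higher and 9.49% called lower over all genes tested, so the list held no more calls than that background. Map2k1, encoding MEK1, fell 1.33-fold and the scaffold Ksr1 1.52-fold, while the RAS-family gene Mras rose 3.47-fold and the ETS factor Elk4 1.5-fold. Elk4 was called in 4 of 9 fits that left out 1 library. The count of the list depended on single libraries, as did that over all genes, with 13 genes called without shB replicate 1, 7 without shA replicate 1 or shA replicate 2, 2 without NTC replicate 2, and 1 without NTC replicate 1 or NTC replicate 3.

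At the top of the pathway 5 of 12 receptor tyrosine kinases rose and 4 fell, with a median log2 difference of -0.34. The background for the receptors and the ligands was 15.5% called higher and 9.49% called lower over all genes tested. Egfr averaged 140 ± 39.5 in shA, 325 ± 37.3 in shB and 24.5 ± 17.6 in NTC tumours (SD, n = 3 each), a 10.0-fold increase (adjusted p 0.000648 in limma). Csf1r, the CSF1 receptor of macrophages, rose 7.77-fold, the stem cell factor receptor Kit 5.88-fold and the HGF receptor Met 3.42-fold. The FGF receptors Fgfr1 and Fgfr2, named after their values were seen, fell 1.75-fold and 2.06-fold. Also named after their values were seen, Pdgfrb and Igf1r fell by 0.66 and 0.69 on the log2 scale, and Erbb2 rose by 0.42. With 1 library left out, Pdgfrb was called in 2 of 9 fits and Igf1r in 1 of 9. The receptors that fell numbered 2 without shA replicate 2, shB replicate 2, shB replicate 3, NTC replicate 2 or NTC replicate 3, and 1 without NTC replicate 1. Without NTC replicate 1, 5 of the 12 were called. Of 16 ligands 6 rose and none fell, with a median log2 difference of 0.77. Csf1, which supports macrophages, rose 6.56-fold, Hgf 4.81-fold, Fgf1 2.77-fold and Pdgfc 2.19-fold. Hgf was low in NTC tumours, at 3.38, 8.03 and 13.4 normalized reads, with 3 reads in the lowest library. It passed the filter of 20 only through the knockdown libraries. The other ligands that rose were Igf1, called in 3 of 9 fits with 1 library left out, and Btc, called in 2 of 9. Pdgfc was likewise called in 3 of 9 such fits, and its knockdown and NTC libraries overlapped. The ligand count was 3 without shB replicate 2 or shB replicate 3, and 2 without NTC replicate 1 or NTC replicate 3.

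**Figure D4:**
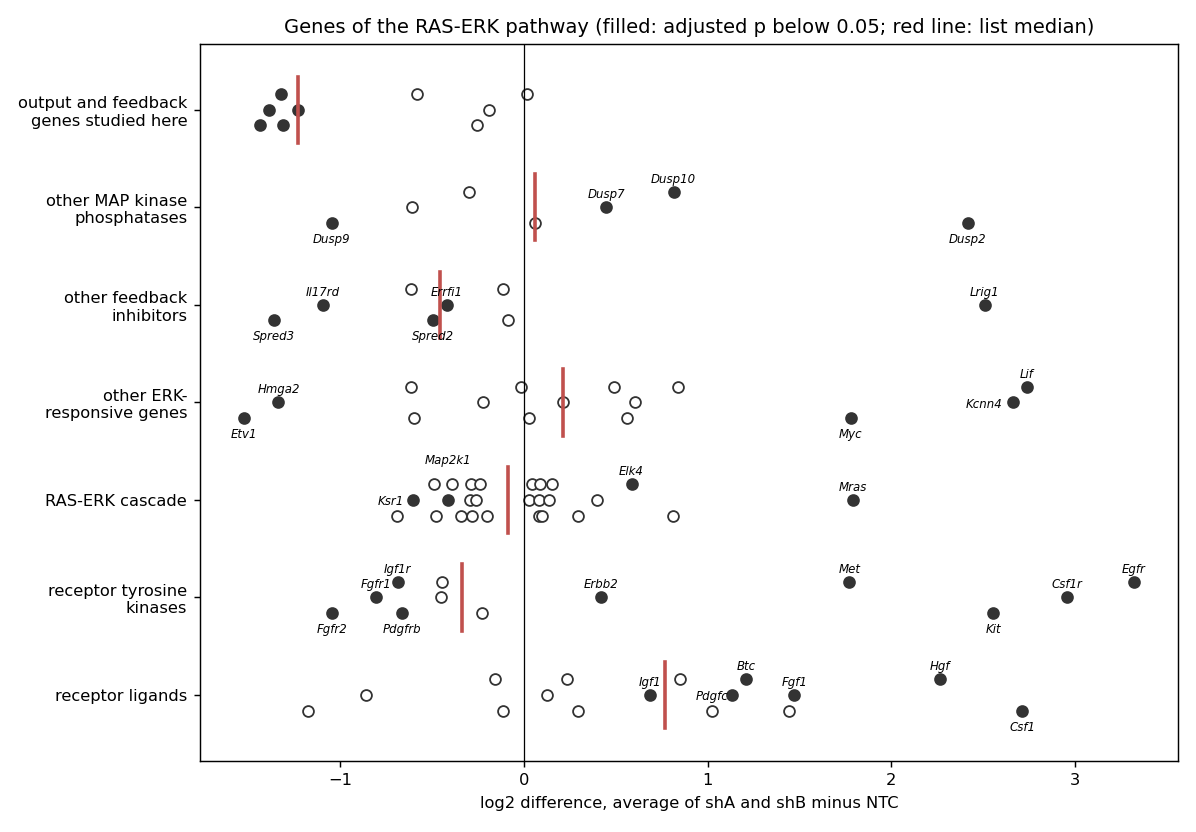
Log2 differences of both shRNAs to NTC for each tested gene of the 9 outputs and of 6 other lists of pathway genes, 1 point a gene, with genes that passed the test in limma marked. The 9 outputs hold 5 genes that fell and none that rose. The other lists hold rising and falling genes or, for the ligands, rising genes. Among the 8 other feedback inhibitors 4 fell and 1 rose. Over all genes tested, 9.49% were called lower and 15.5% higher. All lists were chosen with earlier results of these data known.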

How the data were processed

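Whole-tumour RNA was sequenced in 9 libraries. The values the authors deposited are a signal per gene, which the labels do not describe. In each library 100% of values were whole multiples, within 0.001, of 1 step. The inverse of each step equals the median-of-ratios size factor of the library, so reads could be recovered. The submitters' processing notes name Cuffdiff 2.2.1 and mm9 without a role. Genes with a value of at least 20 in at least 3 libraries (14600) were tested on log2(value + 0.5) with limma 3.58.1 (R 4.3.3), using 1 model of all libraries, a trended prior and Benjamini-Hochberg adjustment, with a threshold of 0.05. Fold changes are on that scale and understate the change of low genes. On the recovered reads, edgeR 4.0.16 called 3499 genes for both shRNAs against NTC and DESeq2 1.42.0 called 4474, against 3644 in limma. The fit was tested on simulated data.

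Beside Gad1 and the 9 genes, the rule named up to 4 genes per list with the smallest p and the 2 nearest profiles per gene (mean of at least 40). The members and lists were chosen with earlier results of these data known. Replicates differed by more than sampling noise. Alternatives covered scaling, filter, pseudocount, prior, weights, block and libraries left out.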

Additional observations from a re-analysis of the deposited data

How the results depend on the processing

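For Dusp4, Dusp6, Spry2, Spry4 and Etv4, 368 of 370 values over the alternatives and the 3 comparisons with NTC were called lower; the exceptions, for Dusp4 with shB, stand above. No scaling moved the median of all genes by over 0.1 on the log2 scale. Array weights, whose estimation stopped before convergence, called 8819 genes for both shRNAs, 6063 for shA and 9847 for shB against NTC, and 1396 between shA and shB. Leaving out the first replicate of each group gave 6361 for both shRNAs, 3930 for shA, 6526 for shB and 13 between shA and shB, and a fold threshold of 1.2 gave 2128 for both shRNAs, 1441 for shA and 1907 for shB; DESeq2 gave 23 between shA and shB. Array weights called 8 of the 9 genes for shB, 3 between shA and shB, 19 of the core cascade, 12 ERK-responsive genes and 11 ligands. Without the first replicates, 16 of the core cascade, 9 ERK-responsive genes and 10 ligands were called. DESeq2 called 9 of the core cascade. The fold threshold called 1 of the core cascade, 3 feedback inhibitors and 3 ligands, and no trend in the prior called 3 feedback inhibitors. The cause of these changes was not tested.

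Leaving out 1 library gave 2005 to 5498 genes for both shRNAs, 1268 to 3992 for shA, 1835 to 4237 for shB and 0 to 1 between shA and shB. It gave 5 to 6 of the 9 genes for both shRNAs and for shA, 4 to 5 for shB, 1 to 13 of the core cascade, 5 to 8 ERK-responsive genes, 2 to 4 phosphatases, 3 to 5 feedback inhibitors, 2 to 7 ligands and 5 to 11 receptors.

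Signs turned for log2 differences that had not passed the test. Array weights and leaving out the first replicates gave, between shA and shB, 0.26 and 0.32 for Dusp4, -0.21 and -0.19 for Dusp5, -0.23 and -0.24 for Phlda1, and 0.15 and 0.14 for Spred1; for shB against NTC they gave 0.38 (adjusted p 0.0151 in limma) and 0.41 for Dusp5 and 0.061 and 0.030 for Phlda1. Scaling to the total gave -0.032 for Phlda1 between shA and shB and -0.00385 for Dusp5 with both shRNAs, and DESeq2 gave -0.00190 for the same Dusp5 value. With 1 library left out, Dusp5 ranged from -0.16 to 0.29 with both shRNAs, -0.058 to 0.40 with shA, -0.27 to 0.18 with shB and -0.0054 to 0.37 between shA and shB. Between shA and shB, Dusp4 ranged from -0.39 to 0.21, Phlda1 from -0.22 to 0.21 and Spred1 from -0.19 to 0.042.

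Deviations from the group means correlated at -0.341 to 0.0579 between same-numbered libraries and at -0.245 to 0.388 between the others. Same-numbered libraries thus showed no shared deviation. With 3 libraries a group, these values cannot decide whether the numbers mark a pair or a batch. With the replicate block 6 of the 9 genes were called for both shRNAs, 6 for shA and 5 for shB, Etv5 being the addition (adjusted p 0.0337 in limma for both shRNAs), and 3 feedback inhibitors. A fit of only the groups compared gives no separate value for both shRNAs. With 3 libraries a group, the 95% intervals limit which differences between shA and shB could be seen.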
